A study of Drosophila melanogaster with 16 samples.

Results

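Bomanins and Daishos are small secreted peptides of the fruit fly that appear in the blood after infection. Expression was followed for 8 Bomanin genes (BomS1, BomS2, BomS3, BomS5, BomS6, BomT2, BomBc1 and BomBc2) and both Daisho genes (Dso1 and Dso2) in P1 neurons of mated and naive Drosophila melanogaster males. These 10 genes, of 17559 in the count tables, were matched by FlyBase symbol. They were picked because their counts were higher in mated than in naive males, so the difference between those groups is described below and not tested as a finding.

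Bomanins are induced by the Toll pathway, mostly in the fat body, and flies that lack them succumb to Gram-positive bacteria and fungi. In that pathway, recognition proteins in the blood sense microbes and start a protease cascade that cleaves Spätzle, the ligand of the receptor Toll. Toll then acts through Myd88, tube and pelle to release the transcription factors Dorsal and Dif from Cactus. Short Bomanins (BomS) hold little beyond the Bomanin motif, tailed ones (BomT) carry an extension after it, and bicipital ones (BomBc) carry a pair of motifs joined by a linker. Daishos are a separate pair of Toll-induced peptides known for activity against filamentous fungi.

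P1 neurons are male-specific brain interneurons that express fruitless and take part in courtship. Animals of both groups carried the reporter UAS>stop>GFP/+ together with fruFLP/NP2631-Gal4, a combination in which green fluorescence marks cells where the Gal4 driver and a recombinase made from fru overlap, so the marked set is only as narrow as that overlap. Males were kept alone for 4 to 6 days, after which mated males were put with a female and naive males stayed virgin. The series text gives an age of 3 to 6 days and 12 cells in the cluster, and cells recognised by their position and fluorescence were taken by pipette from live flies. Each group had 4 libraries, and each library was sequenced in 2 runs, A and B, which were summed. The series text speaks of paired sets, but no label says which libraries form a pair, nor how many cells or flies a library holds. The p-values therefore measure the spread between libraries.

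Library totals ran from 7440583 to 13651313 counts in mated and from 6897560 to 9162763 in naive males. Levels are given as CPM, a gene's counts relative to the library total, which was scaled by TMM, a factor that aligns libraries on the bulk of their genes. The neuronal genes elav, nSyb, Syt1, brp, Snap25 and futsch and the identity genes fru and dsx had counts in all 8 libraries. Their summed level was 7114 to 11235 CPM in mated and 10964 to 15503 CPM in naive libraries, and fru itself stood at 50.9 to 542 CPM in mated and at 344 to 1143 CPM in naive libraries. The sample titles carry a number of unstated meaning. Mated libraries 1 and 3 and naive library 3 share the number 1119, and no other number is found in both groups.

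The family lies mostly in a compact block of the genome. On chromosome arm 2R (Ensembl annotation of BDGP6, the dm6 build), 10 Bomanin genes, 8 of them from the studied set, stand between positions 18381393 and 18390629, a stretch of 9237 bp with no other annotated gene. Their order along the arm is BomT1, BomBc1, BomS1, BomS4, BomBc2, BomS2, BomS3, BomT2, BomS5 and BomS6. Dso1 (20868496 to 20869321) and Dso2 (20870392 to 20870678) are neighbours further along 2R, and BomT3 and BomBc3 are neighbours on 3R. Each of the 10 genes has 1 intron, and their exons add up to between 198 bp (BomS6) and 769 bp (BomS3), with a median of 375 bp. The median over the 6938 tested genes of known length was 2299 bp. BomBc2 overlaps BomS4 on the other strand by 88 bp, and the use of strand in counting is not given in the sources used here, so how reads were split between these genes is uncertain. Family members resemble each other, and reads shared between near-identical stretches may also have been lost or misplaced in counting.

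Together the 10 genes took a larger part of the mated libraries. Their summed level was 2391, 1975, 845 and 984 CPM in mated libraries 1 to 4, against 81.1, 85.9, 206 and 74.6 CPM in naive libraries 1 to 4. They took 0.0855% to 0.262% of all counts in mated libraries and 0.00733% to 0.0181% in naive ones. Every mated library was above every naive library, and naive library 3 was the highest of its group. Fewer cells of a type and less RNA per cell cannot be told apart in such samples.

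**Figure D1:**
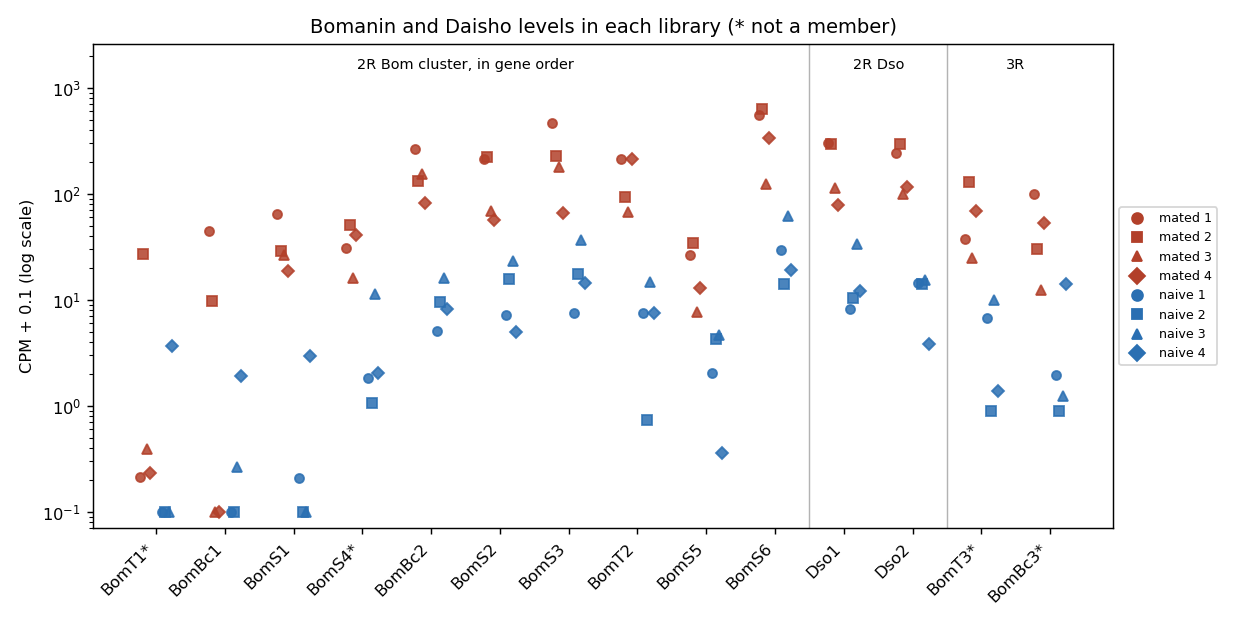
Level of each Bomanin and Daisho gene (vertical axis, CPM + 0.1, log scale) in 4 mated libraries (red, left) and 4 naive libraries (blue, right), with symbols for library numbers and asterisks on genes outside the 10 studied. Genes run in their order on the chromosome. Mated libraries lie above all naive libraries in 9 of the 10 genes, and BomBc1 is the exception, with 0 counts in mated libraries 3 and 4.

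Among the short Bomanins, BomS6 had the highest mean in both groups. BomS3 exceeded it in mated library 3 and naive library 2, and BomS2 did so in naive library 2. BomS6 reached 551, 634, 124 and 338 CPM in mated libraries 1 to 4, against 29.7, 14.1, 62.1 and 19.2 CPM in naive libraries 1 to 4. Mated library 3, the lowest of its group, was at 2.00 times the highest naive library, naive library 3. The means were 412 ± 229 CPM in mated and 31.3 ± 21.6 CPM in naive males (SD, n = 4 each), a log2 fold change of 3.72 ± 0.55 (SE).

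BomS3, whose product is also known as IM3, had a highest mated library at 7.08 times its lowest, against 5.10 times for BomS6. Its level was 471, 227, 181 and 66.5 CPM in mated libraries 1 to 4, against 7.49, 17.5, 36.6 and 14.4 CPM in naive libraries 1 to 4. The groups did not overlap, and the log2 fold change was 3.64 ± 0.61 (SE). BomS2, or IM2, split the mated libraries into a high and a low pair. It had 212 and 223 CPM in mated libraries 1 and 2 and 69.3 and 56.4 CPM in mated libraries 3 and 4, against 7.06, 15.7, 23.3 and 4.89 CPM in naive libraries 1 to 4. Its log2 fold change was 3.46 ± 0.63 (SE).

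BomS5 and BomS1 were the scarce short forms. BomS5 had 26.6, 34.5, 7.60 and 12.7 CPM in mated libraries 1 to 4, against 1.95, 4.17, 4.59 and 0.257 CPM in naive libraries 1 to 4. The lowest mated and highest naive values of BomS5 were closer than those of any other of the 10 genes without overlap, and its log2 fold change was 2.89 ± 1.28 (SE). BomS1, or IM1, had 64.0, 28.7, 26.4 and 18.8 CPM in mated libraries 1 to 4. In naive libraries 1 to 4 it had 1, 0, 0 and 22 counts, so that naive library 4, at 2.83 CPM, held nearly all naive reads of this gene. The fitted log2 fold change of 5.51 ± 1.56 (SE) rests on these near-empty naive libraries.

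The tailed BomT2 followed another order of libraries. It reached 213, 93.6, 67.6 and 213 CPM in mated libraries 1 to 4, against 7.38, 0.641, 14.8 and 7.46 CPM in naive libraries 1 to 4. Mated library 4, which was lowest for 5 of the 10 genes, was here level with mated library 1. The log2 fold change was 4.28 ± 0.74 (SE).

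The bicipital genes differed sharply from each other. BomBc2 was present in every library, at 263, 131, 155 and 82.5 CPM in mated libraries 1 to 4, against 4.99, 9.46, 15.9 and 8.11 CPM in naive libraries 1 to 4. Its log2 fold change was 4.04 ± 0.52 (SE), and its lowest mated value was 5.19 times its highest naive value. BomBc1, also called IM23, had 384, 111, 0 and 0 counts in mated libraries 1 to 4 and 0, 0, 1 and 14 counts in naive libraries 1 to 4. A count of 0 allows up to 3 counts, or 0.217 CPM in mated library 3 and 0.394 CPM in mated library 4, as far as counting error goes. BomBc1 was therefore high in mated libraries 1 and 2, at 44.2 and 9.60 CPM, and below naive library 4, at 1.80 CPM, in the other mated libraries. It was too scarce to be tested.

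Both Daisho genes were highest in the same mated libraries. Dso1, or IM4, had 304, 295, 113 and 79.1 CPM in mated libraries 1 to 4, against 8.14, 10.4, 33.4 and 12.0 CPM in naive libraries 1 to 4. Dso2, or IM14, had 243, 299, 100.4 and 116.5 CPM in mated libraries 1 to 4, against 14.2, 13.9, 15.2 and 3.73 CPM in naive libraries 1 to 4. Mated libraries 1 and 2 were the high pair for both, and the lowest mated library was at 2.37 times the highest naive one for Dso1 and at 6.58 times for Dso2. The log2 fold changes were 3.63 ± 0.59 for Dso1 and 4.01 ± 0.54 for Dso2 (SE).

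Across the table, edgeR's quasi-likelihood test called 24 of 7090 tested genes higher in mated males at an adjusted p under 0.05 (0.339% of those tested) and 3 lower (0.0423%), or 0.381% in all. At an unadjusted p under 0.05, 5.54% were higher and 5.02% lower. Of the 10 genes 9 passed the filter on low counts, and 7 of these were among the 24, namely BomS2, BomS3, BomS6, BomT2, BomBc2, Dso1 and Dso2. As the genes were picked on this contrast, these counts say nothing further about them. The median log2 fold change was 3.72 over the 9 genes and -0.01 over all tested genes. Every mated library lay above every naive library in 9 of the 10 genes and in 4.26% of all tested genes, and it lay below in 3.4%. Only BomBc2 and Dso2 stayed past the threshold without mated library 1, without naive library 1 or without naive library 4, and 4 genes did so without naive library 2. Over all tested genes, these fits called 6, 11, 7 and 12 in that order. With the title number as a factor, the groups are compared within number 1119 alone, with naive library 3 as the only naive library. There 0 of all tested genes were past the threshold, and so 0 of the 10. At an unadjusted p under 0.05 there were 452 in all and 7 of the 10.

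**Figure D2:**
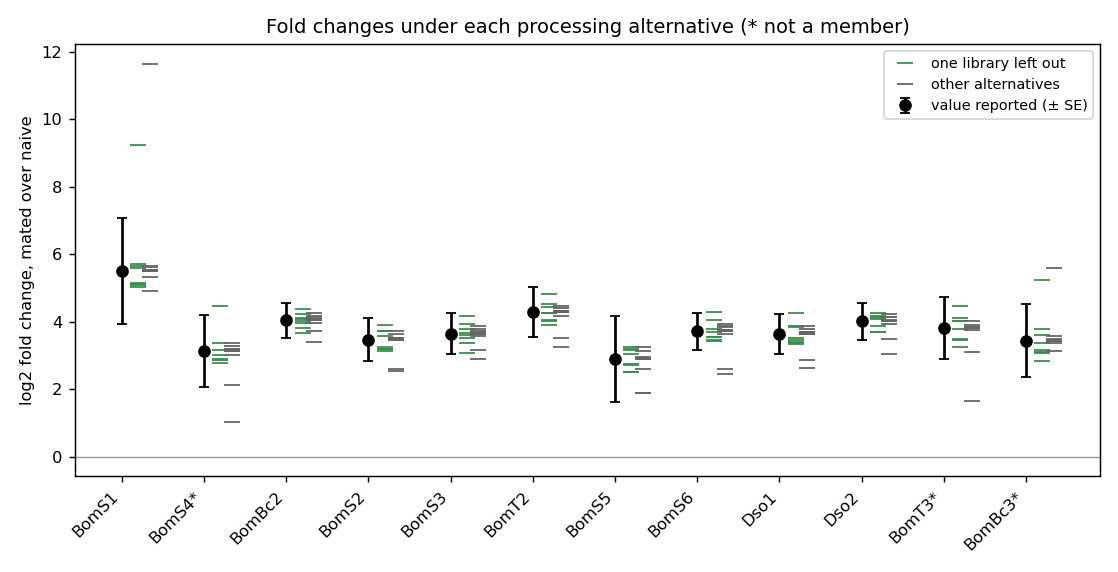
Log2 fold change of mated over naive males (vertical axis) for the 12 Bomanin and Daisho genes that passed the filter, with the reported value and its SE (black), the fits that each left out 1 library (green) and the other alternatives (grey). Asterisks mark genes outside the 10 studied. All values lie above 0, and BomS1 has the widest span, from 4.90 to 11.65. The 11.65 comes from the title number fit, which rests on naive library 3, where BomS1 had 0 counts.

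Within title number 1119, mated libraries 1 and 3 were both above naive library 3 in 9 of the 10 genes. The share of all tested genes in that order was not counted. The genes were picked on values that include these libraries, so this is a description. In the 8 genes with at least 3 counts in naive library 3, the mean of mated libraries 1 and 3 was 3.72 to 13.1 times the naive value. Naive library 3 was itself the highest naive library for 8 of the 10 genes, and it carries the number that the mated libraries 1 and 3 carry. With the other numbers each held in 1 group, number and mating cannot be told apart outside 1119.

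Levels can be set side by side between genes only per exon length. On the scale of CPM per kb of exon, BomS6 was the highest of the 10 genes in all 8 libraries, with a mean of 2080.0 ± 1154 in mated and 158 ± 109 in naive males (SD, n = 4 each). Dso2 came next in both groups, at 851 ± 435 in mated and 52.9 ± 24.2 in naive males. BomT2, BomS2, BomS3, Dso1 and BomBc2 followed in mated males with means between 222 and 383, BomS1 and BomS5 with 95.5 and 93.4, and BomBc1 came last with 28.7. The order in naive males was similar at the top and bottom. BomS2, BomS3, Dso1, BomT2, BomBc2 and BomS5 had means between 12.6 and 34.7 there, and BomS1 and BomBc1 were at 2.04 and 1.05.

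The ranges of neighbouring genes overlapped in all 9 neighbouring pairs in mated males and in 8 of 9 in naive males, where BomS6 stood clear of Dso2. Within single libraries the order was steadier for some neighbours. BomS6 was above Dso2, BomBc2 above BomS1 and BomS5 above BomBc1 in 4 of 4 mated libraries, and BomS6 above Dso2 and Dso2 above BomS2 in 4 of 4 naive libraries. Among all tested genes of known length, the mean of BomS6 lay above 99.9% in mated and 94.1% in naive males, on the same scale. For Dso2 the shares were 99.1% and 81.5%, and for BomBc2 95.5% in mated and 51.5% in naive males. BomS1 lay above 88.8% of tested genes in mated and 12.2% in naive males. In naive males the scarcer genes of the family were thus around or below the median of tested genes, which was 12.8 CPM per kb. BomS6, at 198 bp, is shorter than the 200 bp to which cDNA was sheared, and values per length are uncertain for genes this short.

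**Figure D3:**
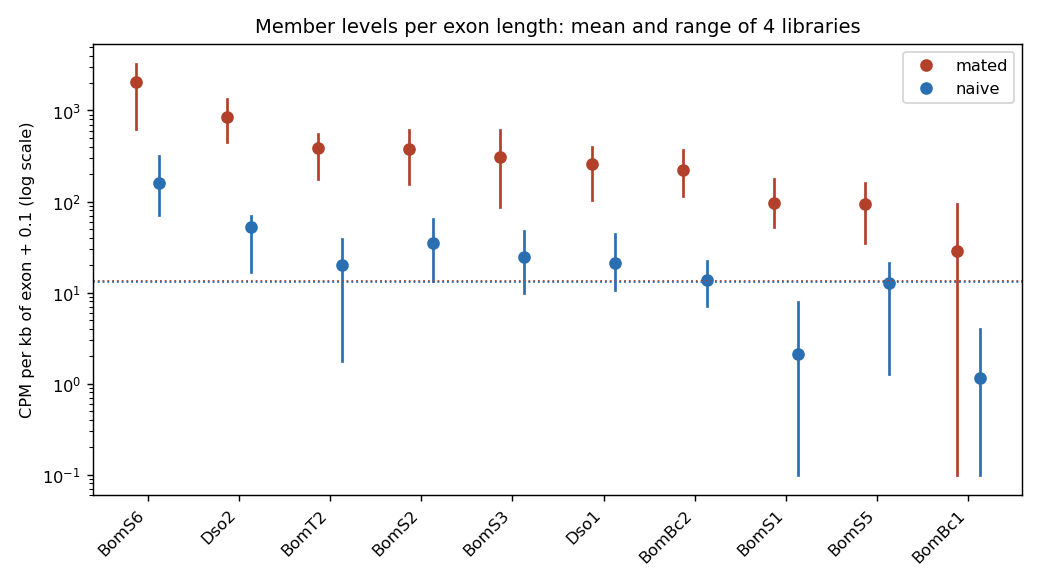
Level per exon length (vertical axis, CPM per kb of exon + 0.1, log scale) of the 10 genes, as the mean (points) and the lowest and highest of 4 libraries (lines) in mated (red, left) and naive males (blue, right), in the order of the mated means. Dotted lines give the median over all tested genes of known length, 13.4 in mated and 12.8 in naive males. BomS6 and Dso2 lead in both groups, and BomS5, BomS1 and BomBc1 fall below the dotted line in naive males.

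The make-up of the family's counts was broadly shared by both groups. BomS6 supplied 14.7% to 34.4% of the 10 genes' counts in mated libraries and 16.4% to 36.7% in naive ones. BomS3 supplied 6.76% to 21.5% in mated and 9.24% to 20.3% in naive libraries, and Dso1 8.04% to 14.9% in mated and 10.04% to 16.2% in naive libraries. BomT2 supplied 4.74% to 21.7% in mated and 0.746% to 10% in naive libraries. BomS1 held 1.45% to 3.13% of the counts in mated libraries, against at most 0.134% in naive libraries 1 to 3 and 3.79% in naive library 4. These shares are of read counts and are not corrected for gene length.

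**Figure D4:**
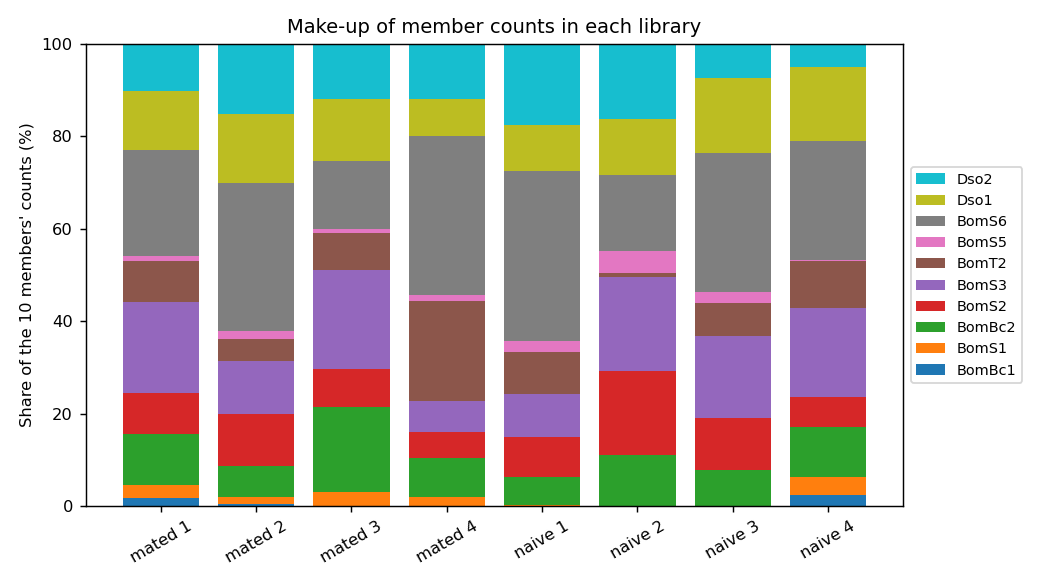
Share of the 10 genes' summed counts (vertical axis, percent) taken by each gene (colours) in 4 mated libraries (left) and 4 naive libraries (right). BomS6, BomS3, Dso1, Dso2, BomS2, BomBc2 and BomT2 make up most of the counts in both groups, and BomBc1 and BomS1 are visible in naive library 4 and hardly in naive libraries 1 to 3.

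Libraries ranked alike for most but not all of the genes. Among mated libraries, library 1 was the highest for 5 genes, library 2 for 4 and library 4 for 1, and the lowest value fell to library 4 for 5 genes and to library 3 for 4, with a tie at 0 for BomBc1. Among naive libraries, library 3 was the highest for 8 genes and library 4 for the other two, BomS1 and BomBc1. After removal of each group's mean from the log2 CPM, the deviations of the 9 filtered genes over 8 libraries correlated with a median Pearson r of 0.39 over 36 pairs (range -0.73 to 0.97). The median over all pairs of tested genes was -0.003. The closest pairs were BomBc2 with BomS3 (r = 0.97) and BomS5 with Dso2 (r = 0.95), and the most opposed pair was BomS1 with BomS5 (r = -0.73). Dso1 followed the mean of the other genes most closely (r = 0.94), and BomS1 did not follow it (r = -0.26). These correlations share library, depth and scaling factor, rest on 8 points and are descriptions.

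Outside the family, the genes whose deviations were most like the mean of the 9 were Pdp, CG5938, RpS7, CG16704 and RpL27, with r of 0.995, 0.986, 0.979, 0.963 and 0.957 over 8 libraries. RpS7 and RpL27 encode proteins of the ribosome. They are the highest of 7078 genes compared on 8 points, of which 18 exceeded 0.9 and 34 fell under -0.9. CG16704 had 81.2, 63.9, 26.9 and 35.4 CPM in mated libraries 1 to 4, against 3.69, 2.40, 7.87 and 3.09 CPM in naive libraries 1 to 4 (log2 3.60 ± 0.80 SE, edgeR adjusted p = 0.0664). Pdp and CG5938 lay the other way between groups, with log2 fold changes of -1.62 ± 0.80 and -1.18 ± 0.68 (SE, edgeR adjusted p = 0.508 and 0.6).

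The other 4 Bomanin genes were not among the 10 and were uneven. Of these 3 were tested, all 3 with log2 fold changes above 0, and edgeR called 0. In 2 of them every mated library lay above every naive library, as in 4.26% of all tested genes. BomT3, a tailed form on 3R, had 37.3, 130.9, 25.0 and 69.1 CPM in mated libraries 1 to 4, against 6.62, 0.802, 9.84 and 1.29 CPM in naive libraries 1 to 4. Its groups did not overlap, and the log2 fold change, 3.82 ± 0.92 (SE), missed the threshold (edgeR adjusted p = 0.0930). BomS4 had 30.6, 51.2, 16.0 and 40.8 CPM in mated libraries, against 1.74, 0.962, 11.3 and 1.93 CPM in naive libraries (log2 3.12 ± 1.07 SE, edgeR adjusted p = 0.265). BomBc3, the bicipital neighbour of BomT3, had 98.9, 29.8, 12.3 and 53.0 CPM in mated libraries, against 1.85, 0.802, 1.15 and 14.0 CPM in naive libraries (log2 3.44 ± 1.09 SE, edgeR adjusted p = 0.223). Its groups overlapped through naive library 4. BomT1 had 310 counts in mated library 2 and at most 4 in the other mated libraries, and 28 counts in naive library 4 and 0 in the other naive libraries. It was not tested. DESeq2 called BomS4, BomT3 and BomBc3 higher in mated males (2.65% of the genes it tested were called higher).

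Further peptides that Toll induces were mostly scarce. Of 13 matched genes 5 were at 0 in all libraries, and 3 passed the filter. Bbd (Bombardier), which short Bomanins need in the blood, had 411, 208, 219 and 363 CPM in mated libraries 1 to 4, against 22.5, 101.2, 93.3 and 19.0 CPM in naive libraries 1 to 4. Its log2 fold change was 2.35 ± 0.52 (SE, edgeR adjusted p = 0.0665). IM33 had 179.7, 189.5, 47.4 and 109.8 CPM in mated libraries, against 10.1, 21.2, 35.7 and 17.5 CPM in naive libraries (log2 2.64 ± 0.54 SE, edgeR adjusted p = 0.0508). BaraC, a baramicin gene, had 37.9, 54.8, 0 and 16.5 CPM in mated libraries, against 1.52, 0, 0.820 and 0 CPM in naive libraries (edgeR adjusted p = 0.287). With edgeR 0 of these 3 passed, 3 had an unadjusted p under 0.05, and DESeq2 called 3 higher (2.65% over all genes it tested). Mtk, the antifungal metchnikowin, had counts in mated library 2 and naive library 3 only, at 9.86 and 3.12 CPM. Drs, BaraA2 and PPO1 had no matching identifier and were not analysed here.

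No gene of the Toll pathway itself was called different between groups. Of 19 listed genes 9 were tested, with a median log2 fold change of 0.40, and 0 passed with edgeR (1 at an unadjusted p under 0.05) or with DESeq2. Their summed level was 477 to 579 CPM in mated and 427 to 508 CPM in naive libraries. The receptor gene Tl had 95.1 to 110.9 CPM in mated and 56.3 to 131 CPM in naive libraries (log2 0.40 ± 0.38 SE, edgeR adjusted p = 0.824). Pli, the pathway gene pellino, had a log2 fold change of -0.25 ± 0.30 and cact, the inhibitor, one of 0.35 ± 0.54 (SE, edgeR adjusted p = 0.895 and 0.932). Dif ranged from 5.50 to 46.0 CPM in mated and from 10.8 to 40.6 CPM in naive libraries. The intracellular genes Myd88 and pll were near 0 everywhere, at no more than 0.778 and 0.164 CPM, and dl, the gene of Dorsal, had at most 0.173 CPM in mated and 5.64 CPM in naive libraries. The protease gene psh, which had 1.38 to 22.0 CPM in mated and at most 0.643 CPM in naive libraries, was the 1 gene at an unadjusted p under 0.05 (edgeR adjusted p = 0.282). SPE, the gene of the protease that cleaves Spätzle, had 11.1, 24.1, 12.0 and 0.262 CPM in mated libraries 1 to 4, against 0.434, 0.1603, 0.656 and 0.257 CPM in naive libraries 1 to 4. It did not pass the filter on low counts and was not tested, and its groups overlapped through mated library 4.

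The Imd pathway, the other main route of fly immunity, likewise held no called gene. Of 18 genes 7 were tested, with a median log2 fold change of 0.59, and 0 passed with edgeR (0 at an unadjusted p under 0.05) or with DESeq2. The imd gene itself had 17.5 to 42.5 CPM in mated and 0 to 11.6 CPM in naive libraries (log2 2.59 ± 1.37 SE, edgeR adjusted p = 0.553). The highest of the list were Diap2 and key, with log2 fold changes of 0.21 ± 0.62 and 0.59 ± 0.46 (SE). Of 13 peptide genes that Imd induces 7 were at 0 in all libraries, among them DptA and the 4 cecropins CecA1, CecA2, CecB and CecC. None passed the filter. Their summed level was 17.2 and 20.7 CPM in mated libraries 1 and 2, 0 in mated libraries 3 and 4, and at most 2.28 CPM in naive libraries. AttA in mated library 1, at 15.4 CPM, and Dro in mated library 2, at 14.6 CPM, held most of it.

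Stress peptides of the Turandot family, which JAK-STAT signalling induces, were high in a different mated library. TotA had 199.8, 644, 110.2 and 3566 CPM in mated libraries 1 to 4, against 34.2, 2.57, 44.8 and 23.8 CPM in naive libraries 1 to 4. Its groups did not overlap, and the log2 fold change, 5.42 ± 1.43 (SE), missed edgeR's threshold (adjusted p = 0.220). TotC had 12.3, 125.4, 4.20 and 411 CPM in mated libraries, against 0.326, 0.802, 1.31 and 9.65 CPM in naive libraries (edgeR adjusted p = 0.187). Mated library 4, the highest for both, was the lowest mated library for 5 of the 10 Bomanin and Daisho genes. Of the list of 10 genes 6 were tested, and 0 passed with edgeR (2 at an unadjusted p under 0.05). DESeq2 called TotA and TotC higher (2.65% over all genes it tested). Stat92E, the transcription factor of that pathway, had a log2 fold change of -0.22 ± 0.36 (SE), and the median of the list was -0.24.

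**Figure D5:**
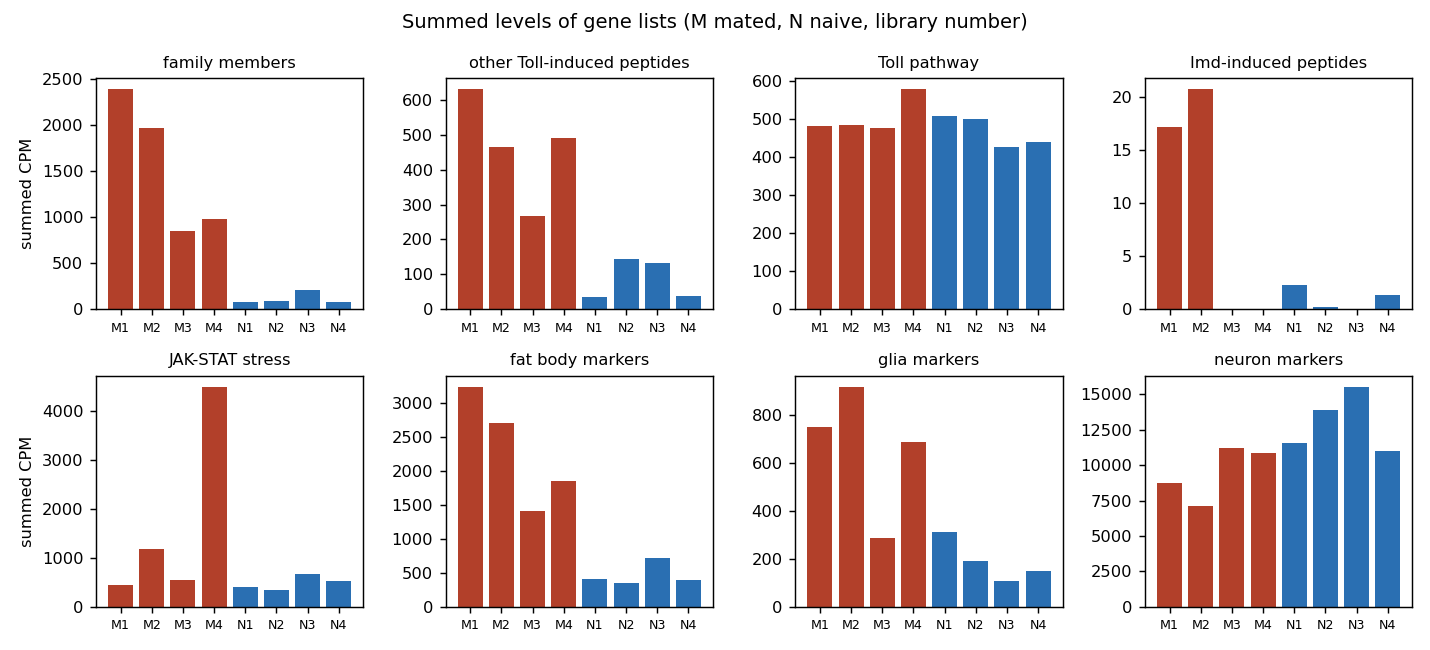
Summed level (vertical axes, CPM, each from 0) of the 10 genes and of 7 gene lists in mated libraries M1 to M4 (red, left) and naive libraries N1 to N4 (blue, right). The 10 genes and the fat body markers are highest in M1 and M2 and, among naive libraries, in N3, while the Toll pathway list lies between 427 and 579 CPM throughout. Glia markers and Imd-induced peptides are also highest in M1 and M2, but in N1 among naive libraries. The neuron and JAK-STAT lists are also highest in N3 among naive libraries, but not in M1 and M2 among mated ones.

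Markers of the fat body, where Bomanins and Daishos are mostly made, had summed levels that did not overlap between groups. Of 14 markers 4 were at 0 in all libraries (Lsp1alpha, Lsp1gamma, Fbp1 and Fbp2), and the summed level was 3241, 2712, 1416 and 1859 CPM in mated libraries 1 to 4, against 417, 344, 714 and 402 CPM in naive libraries 1 to 4. Mated libraries 1 and 2 and naive library 3 were at the top of their groups by these sums, and likewise by those of the 10 genes. Parts of this order were found in other lists. Glia markers were also highest in mated libraries 1 and 2 (749 and 918 CPM), but in naive library 1 among naive ones (314 CPM). The scarce Imd-induced peptides had that same order, at 17.2 and 20.7 CPM in mated libraries 1 and 2 and 2.28 CPM in naive library 1. Naive library 3 was also the highest naive library for the neuron (15503 CPM), photoreceptor (1685 CPM) and JAK-STAT lists (666 CPM). The yolk protein genes were a large part of the fat body sum in mated library 1. The lipid carrier gene apolpp was highest in mated library 2, with 854, 1710.3, 741 and 780.5 CPM in mated libraries 1 to 4, against 260.5, 130.2, 353.5 and 216 CPM in naive libraries 1 to 4. Of 9 tested markers 2 passed with edgeR, both higher: apolpp (log2 2.09 ± 0.35 SE, edgeR adjusted p = 0.0163), and Tsf1, the gene of the iron carrier transferrin (log2 2.57 ± 0.41 SE, edgeR adjusted p = 0.0132). The median over the 9 was 2.76, with 8 above 0 and 1 below, and DESeq2 called 6 higher. Over all tested genes, 49.5% were above 0, and edgeR called 0.339% and DESeq2 2.65% higher. In 4 of the 9 every mated library lay above every naive library, as in 4.26% of all tested genes. Apoltp was the 1 below 0 (log2 -0.46 ± 0.57 SE, edgeR adjusted p = 0.434). Lsp2, whose groups overlapped, had 95.1 to 567 CPM in mated and 12.0 to 204.8 CPM in naive libraries. The yolk protein genes, typical of the female fat body, followed another order. Yp1 had 389, 18.5, 89.6 and 96.0 CPM in mated libraries 1 to 4, against 1.30, 0.481, 11.8 and 0.772 CPM in naive libraries 1 to 4 (edgeR adjusted p = 0.0598). The part of fat body RNA in the values of the 10 genes was not tested.

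Markers of other cells were looked at in the same way. Over all tested genes, edgeR called 0.339% and DESeq2 2.65% higher. At an unadjusted p under 0.05 with edgeR, 5.54% were higher and 5.02% lower. Summed glia markers stood at 288 to 918 CPM in mated and 108 to 314 CPM in naive libraries, with 5 of 5 tested genes above 0 and a median log2 fold change of 2.05. Of these 0 passed with edgeR (4 at an unadjusted p under 0.05), and DESeq2 called 4 higher, nrv2, Eaat1, Gs2 and wrapper. The glial identity gene repo had 4.60, 0, 5.14 and 9.84 CPM in mated libraries 1 to 4, against 5.75, 0.641, 0 and 10.04 CPM in naive libraries 1 to 4, and its groups overlapped. Summed photoreceptor markers were at 1298 to 1865 CPM in mated and 1062 to 1685 CPM in naive libraries. Most of this sum was norpA, at 853 to 1425 CPM in mated and 1021 to 1626 CPM in naive libraries. The log2 fold change of norpA was -0.25 ± 0.24 (SE). Over the 8 tested genes the median was 1.99, with 6 above 0 and 2 below. With edgeR 1 of the 8 passed, Arr2 (log2 3.79 ± 0.66 SE, edgeR adjusted p = 0.0196), and 4 had an unadjusted p under 0.05. DESeq2 called 3 of these higher. Hemocyte markers, of which Hml, NimC1, eater and He are defining, summed to 64.7 to 101.2 CPM in mated and 67.8 to 155 CPM in naive libraries. Hml, NimC1 and He were highest in mated library 2, at 8.13, 5.71 and 1.47 CPM. In every other library these genes had at most 1.18, 2.32 and 0 CPM, and eater never exceeded 0.328 CPM. The defining genes did not pass the filter. Of 4 tested hemocyte markers 0 passed with edgeR (0 at an unadjusted p under 0.05) or with DESeq2. The 8 neuron genes all had log2 fold changes below 0, with a median of -0.49, and 0 passed with edgeR (4 at an unadjusted p under 0.05) or with DESeq2. The part of these cells in the values of the 10 genes was not tested.

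Short transcripts as a class leaned the same way. Outside the family, 572 tested genes had exons no longer than the longest of the 10, and their median log2 fold change was 0.47, with 73.6% above 0 against 49.5% of all tested genes. Of these 572, edgeR called 4 higher (0.699%) and 0 lower. When each library's trend with exon length was removed, the median over the 9 genes was 2.90 in place of 3.72, and only BomBc2 and Dso2 stayed past the threshold.

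Repeat sequencing gave similar counts for the 10 genes. Runs A and B were compared in each gene and library by an exact binomial test, two-sided, against the run's share of the library total. Of 74 gene and library pairs with counts 0 passed after Benjamini-Hochberg adjustment (lowest adjusted p = 0.810), and 2 had an unadjusted p under 0.05. In the 46 pairs with at least 100 counts, 41.0% to 56.4% of the counts came from run A. The runs share 1 amplified cDNA, so this agreement covers sequencing and not the loss or gain of transcripts in amplification, and reads without molecular identifiers are not independent molecules.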

How the data were processed

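The authors deposited raw read counts per gene for runs A and B of 8 libraries and their sum. The submitters' processing notes name cutadapt, HISAT2 2.2.1, featureCounts 1.6.2, edgeR, limma, DESeq2 and the builds dm6 and BDGP6. The annotation release and the use of strand are not given in the sources used here. Per the labels' protocols, cDNA was amplified for 15 rounds, sheared to 200 bp and amplified for 12 further rounds, which can lose rare transcripts by chance.

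Runs were summed, which equalled the deposited sum in every gene, and groups came from the treatment label. The test was that of edgeR 4.0.16, in R 4.3.3 (filterByExpr, TMM, robust glmQLFit, glmQLFTest, group as the only term), with Benjamini-Hochberg adjustment over 7090 genes and a threshold of 0.05. The biological coefficient of variation was 0.936. Each SE was obtained as the log2 fold change over the root of its F statistic. Totals of 6897560 to 13651313 counts put the floor of 3 counts at 0.217 to 0.492 CPM. Deviations used log2 CPM with a prior count of 1. Alternatives were other scalings, DESeq2 1.42.0, filters and runs, the title number, the length trend and leaving out each library. The code was tested on simulated data.

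The genes and lists were chosen with earlier results of these data known. Named genes are all family genes, list genes past the threshold or among the highest of a list, and the 5 genes most like the family, with further list genes picked once values were known. The names of 306 of 17559 identifiers were not found, and Drs, BaraA2 and PPO1 were not analysed here. No sequences are shown, as none were used here.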

Additional observations from a re-analysis of the deposited data

Results flagged for a closer look

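In groups of 4 libraries, values were examined for 1 library far from the other three, by the gap to its nearest neighbour over the range (Dixon's test). For independent values with a normal spread, chance would give about 1 such case in 20 groups. Here 10 were found in 52 groups. These groups share libraries and include near-empty genes, so that number cannot be set against chance. All but 2 of the 10 cases concern naive libraries 3 and 4.

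Naive library 4 stood high in 4 genes. It had 3.60 CPM of BomT1, where the other naive libraries had 0. For BomBc1 it had 1.80 CPM, with the nearest naive library at 0.164 CPM. For BomS1 it had 2.83 CPM, with the nearest at 0.109 CPM. For BomBc3 it had 14.0 CPM, with the nearest at 1.85 CPM. In Dso2 the same library stood low, at 3.73 CPM with the nearest at 13.9 CPM.

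Naive library 3 stood high in BomS4, at 11.3 CPM with the nearest at 1.93 CPM, and in Dso1, at 33.4 CPM with the nearest at 12.0 CPM. It also stood high in the summed level of the 10 genes, at 206 CPM with the nearest at 85.9 CPM.

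Among mated libraries, library 2 had 26.8 CPM of BomT1 with the nearest at 0.290 CPM. Mated library 4 had a summed Toll pathway level of 579 CPM with the nearest at 485 CPM.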

How the results depend on the processing

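The log2 fold changes of the 12 tested family genes were above 0 in each alternative that could fit them. No paired analysis was possible because no label says which libraries form a pair. With DESeq2 the genes past the threshold numbered 234 in all, 8 of the 10, 8 in the immune lists and 13 in the marker lists, against 27, 7, 0 and 3 as reported. With at least 10 counts in every library there were 64 in all and 2 in the immune lists. Without a filter there were 56 in all, 2 in the immune and 6 in the marker lists. Library-size scaling gave 46, 2 and 5, with the median over all genes at 0.17 in place of -0.01, and run B alone 47, 2 and 7. Run A alone and upper-quartile scaling each gave 1 in the immune lists. With the length trend removed there were 12 in all and 2 of the 10, with a median log2 fold change of 2.90. With the title number as a factor there were 0 in all (452 at an unadjusted p under 0.05), 0 of the 10 and 0 markers. With 1 library left out, counts ran from 6 to 53 in all, 2 to 7 of the 10, 0 to 3 in the immune and 0 to 7 in the marker lists, and the median from 3.53 to 4.27. The cause of these shifts was not tested, except that single runs, left-out libraries and the stricter filter rest on fewer counts, samples or genes. At these depths BomT1, BomBc1 and BomS1 were at or under the floor of 3 counts in naive libraries 1 to 3.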

Other observations

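BomT1, BomBc1 and BomS1 are the first 3 genes of the 2R block in coordinate order. In naive libraries 1, 2 and 3 each of the 3 genes had 0 or 1 counts, and in naive library 4 they had 28, 14 and 22. The next genes of the block, BomS4 and BomBc2, had at least 6 and 46 counts in every naive library. Among mated libraries, BomT1 had 1, 310, 4 and 1 counts and BomBc1 384, 111, 0 and 0 counts in libraries 1 to 4. BomS1 had 556, 332, 365 and 143 counts there. BomBc3, on 3R, shared the high value in naive library 4, with 109 counts against 17, 5 and 7 in naive libraries 1 to 3, while its neighbour BomT3 had 61, 5, 60 and 10 counts in naive libraries 1 to 4. This was seen in the data and was not tested.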
